A study of Rattus norvegicus with 42 samples.

Results

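Damaging light was given to rat retinas with or without a prior injection of vehicle into the vitreous, and each gene was examined for whether its response to light differed between the uninjected and the vehicle-injected animals. The measure was the interaction, the light response after vehicle (vehicle plus light against vehicle) minus the light response without injection (light damage against control), on the log2 scale. All 18094 genes with enough counts, of 32623 in the deposited count table, were members. The 4 groups held 22 of the 31 libraries with counts: 5 from control rats with no treatment, 7 from uninjected rats kept for 24 h under 15000 lux (light damage), 5 from rats injected with vehicle and not exposed, and 5 from rats injected with vehicle and exposed to the same light (vehicle plus light). The other 9 libraries came from rats injected with 1 mM nanoceria (cerium oxide nanoparticles) without or with that light. All rats were adult. The labels do not state the strain, the sex, the composition of the vehicle or the interval between injection, light and dissection.

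Intense light kills rod photoreceptors. Dying photoreceptors and the surrounding Müller glia release survival signals such as leukaemia inhibitory factor and endothelin 2, and microglia release chemokines that draw in phagocytes. A needle passed into the vitreous is itself a small wound that can prime glia and microglia, which is why a vehicle group accompanies an injected treatment and why its own light response is of interest.

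Vehicle libraries held 73369026 to 121336562 counts, vehicle plus light libraries 87979270 to 182162368, control libraries 74306775 to 120222710 and light damage libraries 25158407 to 149429413. A pair of vehicle libraries (replicates 4 and 7) and a pair of light damage libraries (replicates 4 and 7) were far more alike than any others, with chi-square values of 4.55 and 10.98 per degree of freedom against at least 74.7 for every other pair of libraries. They differed by more than counting noise, so they were kept apart, and results are also given with each pair summed to 1 library. Rod phototransduction genes held 4.12% to 7.26% of the counts in control and 5.27% to 6.49% in vehicle. Transcripts of Y-linked genes were high in 1 of 5 vehicle, 2 of 5 vehicle plus light, 4 of 5 control and 4 of 7 light damage libraries, so sex was unevenly spread over the 4 groups. Lens transcripts were highest in vehicle, at 0.582% to 3.74% of counts, against 0.357% to 0.769% in vehicle plus light, 0.0863% to 0.981% in control and 0.0383% to 0.984% in light damage. In bulk retina, fewer cells of a type and less RNA per cell cannot be told apart.

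The sequence of a single promoter is shown here because Cxcl11, a chemokine whose light response differed with vehicle (described below), held a match to 1 of 2 inflammatory promoter motifs searched. Of the 8 genes called for the interaction, 4 had a promoter in the table used (Cxcl11, Plscr5, Spice1 and Cntnap5b), and only Cxcl11 of these held a match. Ccl3, Etv4, LOC100359600 and AABR07017268.1 were not searched. The sequence is that of RefSeq on the GRCr8 build, from 250 bases before to 50 bases after the gene start, chr14:15973478-15973777 on the plus strand. Capitals mark a match to an NF-kB form, GGGA and TTCC with any 2 bases between them, at bases 177 to 186 of the 300.
Cxcl11: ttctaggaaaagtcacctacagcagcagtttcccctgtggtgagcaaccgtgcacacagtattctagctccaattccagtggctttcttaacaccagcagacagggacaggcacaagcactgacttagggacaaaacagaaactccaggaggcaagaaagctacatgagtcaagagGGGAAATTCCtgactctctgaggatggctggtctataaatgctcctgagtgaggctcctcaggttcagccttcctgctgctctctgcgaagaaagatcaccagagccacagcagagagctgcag
Of 29 measured chemokine and cytokine genes, 20 had a promoter in the RefSeq table, and 5 of these (Ccl7, Cxcl1, Cxcl10, Cxcl11 and Il6) held the NF-kB form on either strand, against 435 of all 33469 promoters (1.3%). The interferon-stimulated response element form (TTTC and again TTTC with any 2 bases between) was found in 1 of the 20, Cxcl10, against 3.92% of all promoters. The list was counted per gene, with a match in any promoter of that gene. The background was counted per promoter, so the 2 shares differ in unit.

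Few genes passed edgeR's test of the interaction, 8 of 18094, against 40 by the DESeq2 Wald test and 118 by limma-voom with quality weights. Light changed 4074 genes without injection (22.5% of those tested, 11.9% higher and 10.6% lower, by edgeR's quasi-likelihood test at a Benjamini-Hochberg adjusted p under 0.05) and 3046 after vehicle (16.8%, 9.67% higher and 7.17% lower). Scaled by library size alone, the split moved to 2371 higher and 1100 lower without injection and to 2434 and 688 after vehicle. Of the 2262 genes called in both, 2255 moved in the same direction and 7 in opposite directions. A further 2596 genes were called in only 1 of the 2 settings, but the interaction was called for 3 of these. Being called in 1 setting alone was thus rarely accompanied by a called difference. At an unadjusted p under 0.05 the interaction passed for 580 of the 2596, against 5.85% of all genes. The same libraries enter the light calls and the interaction, so the 2 shares are not independent of the choice. The interaction was called for 8 genes (0.0442%), 4 with a higher and 4 with a lower response after vehicle, and for 1059 genes (5.85%) at an unadjusted p under 0.05. Its median was 0.02, with a median standard error (SE) of 0.198, and for 13180 genes (72.8%) the 95% interval of the interaction lay within 1 log2 unit either side of 0. The count of 8 fell to 5 with the near-identical pairs summed or without control 5, light damage 6, vehicle 2 or vehicle 4, and rose to 21 without vehicle 1.

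**Figure D1:**
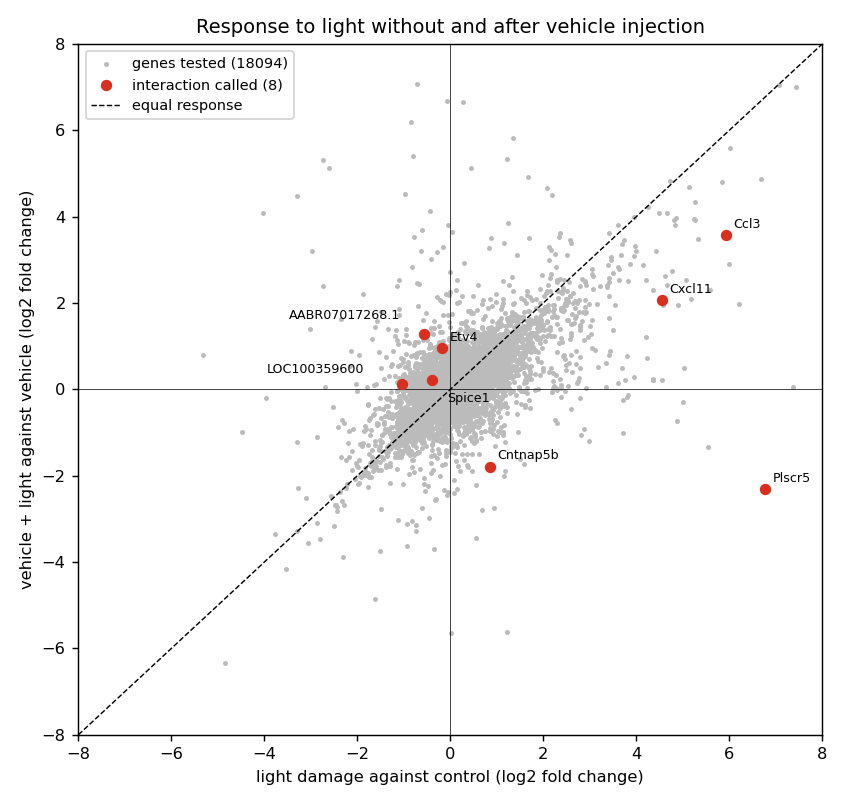
Log2 fold change of each gene with light, without injection (x axis) and after vehicle (y axis). Grey points are the 18094 genes tested, red points the 8 genes called for the interaction, and the dashed line marks equal responses; 4 genes lie outside the axes. Cntnap5b and Plscr5 sit far below the line and on the opposite side of 0 after vehicle, while Ccl3 and Cxcl11 rose in both settings.

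Genes picked as light-responsive in nanoceria-injected animals had similar median responses in both settings. In the nanoceria libraries, none of which belongs to the 4 groups, light called 2520 genes (13.9%, 8.15% higher and 5.78% lower), and with a change of at least 1 log2 unit 324 genes were picked as raised by light and 236 as lowered. The raised genes had a median light response of 1.51 (log2) without injection and 1.501 after vehicle. Of them, 262 and 278 were called higher (11.9% and 9.67% of all genes). The lowered genes had medians of -1.09 and -1.21, with 171 and 181 called lower (10.6% and 7.17% of all genes). The median interaction was -0.12 in both sets, against 0.02 for all genes. Below 0 were 194 of the 324 raised and 159 of the 236 lowered genes (44.8% of all genes). In each set 2 genes were called lower and none higher (0.0221% of all genes in each direction). Because the sets were picked in injected animals, genes responding to light only without injection could be missed.

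For each gene, the group that carried the interaction was taken as the one where the larger of the 2 light differences and the larger of the 2 vehicle differences meet, and it was named clear where each was at least 2 times its counterpart. Of the 8 called genes, 3 were carried by control, 3 by vehicle, 2 by light damage and none by vehicle plus light, and 4 were clear. Among the 1059 genes at an unadjusted p under 0.05, control carried 33.9%, light damage 23.7%, vehicle 22.8% and vehicle plus light 19.6%, and 40.8% were clear. Among all genes tested the shares were 29.1%, 22.7%, 25.2% and 23%, and 31.1% were clear.

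**Figure D2:**
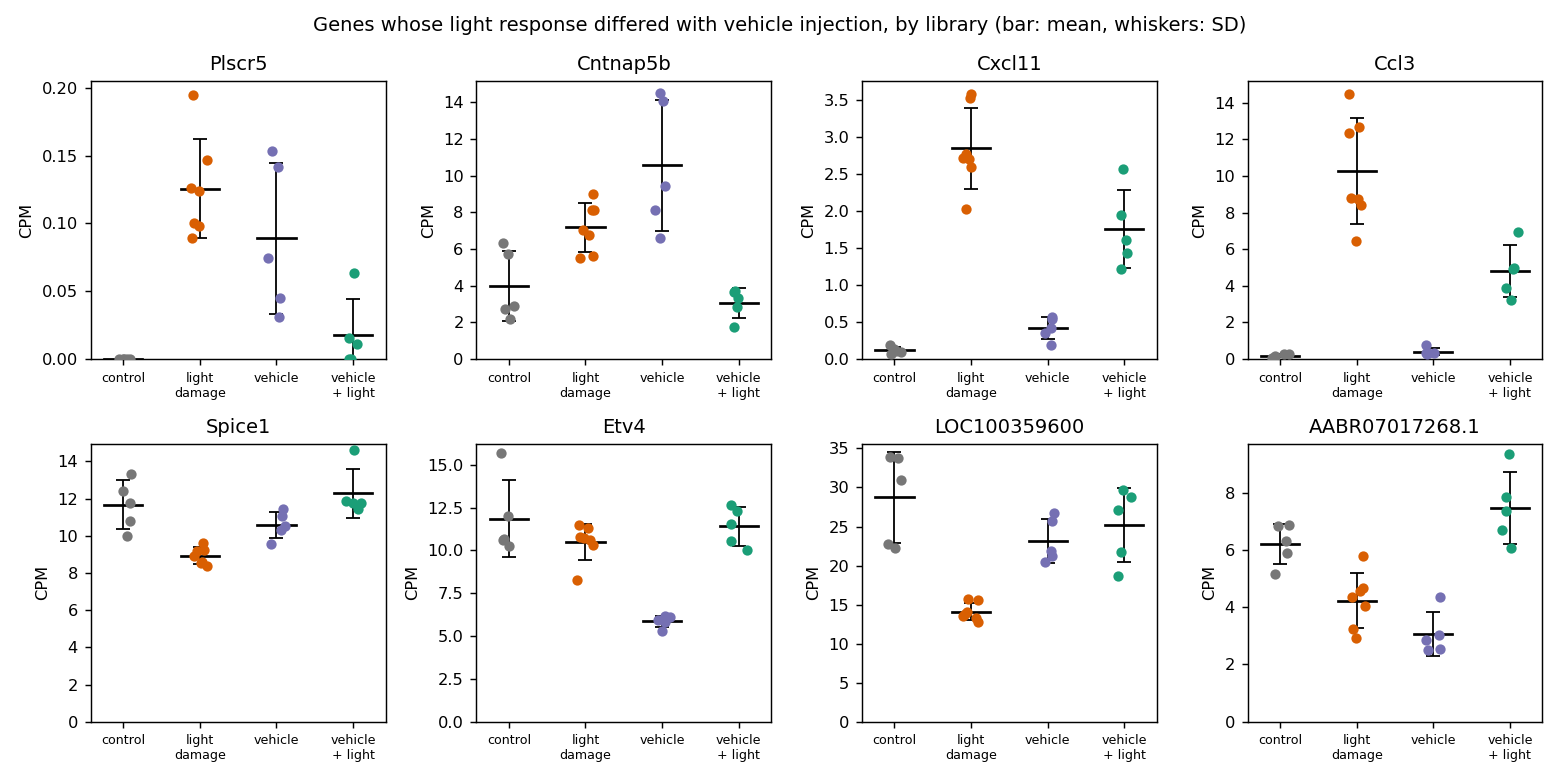
CPM in every library of the 4 groups for the 8 genes called for the interaction, with the mean (bar) and SD (whiskers); each vertical axis starts at 0. Among these 4 groups Etv4 is low only in vehicle. Spice1 and LOC100359600 are low in light damage, and Cxcl11 and Ccl3 rise further without injection than after vehicle.

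Etv4, an ETS transcription factor that acts downstream of FGF receptors, was carried by the vehicle group. In CPM, counts scaled to library size, control libraries 1, 2, 4, 5 and 6 had 10.3, 12.0, 10.7, 10.6 and 15.7, and vehicle libraries 1, 2, 3, 4 and 7 had 5.81, 5.30, 5.93, 6.15 and 6.11. Light damage libraries ranged from 8.27 to 11.5 with a median of 10.7, and vehicle plus light libraries 1, 2, 3, 4 and 6 had 12.3, 11.5, 10.5, 12.6 and 9.999. Every vehicle library lay below every library of the other 3 groups, which overlapped one another. Vehicle lowered Etv4 without light by 1.02 ± 0.14 (log2, SE; edgeR adjusted p = 0.000994), and it was 1 of 4 genes called for vehicle against control (0.0221%, with 0.0111% in each direction). Under light the vehicle difference was 0.12 ± 0.13. Light accordingly raised Etv4 after vehicle (0.96 ± 0.14, edgeR adjusted p = 1.03e-05) and gave -0.17 ± 0.13 without injection, an interaction of 1.14 ± 0.19 (edgeR adjusted p = 0.00849). The low level was not particular to vehicle. Nanoceria libraries without light, outside the 4 groups, had 8.07, 5.77, 6.83 and 5.67 CPM, all below the control libraries. After nanoceria, light raised Etv4 by 0.66 ± 0.15 (edgeR adjusted p = 0.00243).

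Cntnap5b, a neuronal adhesion protein of the contactin-associated family, responded to light in opposite directions. It had 5.76, 6.31, 2.20, 2.88 and 2.72 CPM in control, 5.53 to 9.003 with a median of 7.03 in light damage, 6.63, 8.13, 9.46, 14.1 and 14.5 in vehicle, and 3.68, 2.81, 3.35, 1.75 and 3.69 in vehicle plus light. All vehicle libraries lay above all control libraries, and all vehicle plus light libraries below all vehicle and light damage libraries. Over all genes, vehicle and control did not overlap for 1.44%, and vehicle plus light and light damage for 0.967%. Light raised Cntnap5b without injection (0.85 ± 0.26, edgeR adjusted p = 0.0181) and lowered it after vehicle (-1.79 ± 0.28, edgeR adjusted p = 4.5e-05). The interaction of -2.64 ± 0.39 (edgeR adjusted p = 0.00223) was carried by vehicle, though not clearly, since vehicle differed from control by 1.41 ± 0.28 and vehicle plus light from light damage by -1.24 ± 0.27. Light also lowered it after nanoceria (-1.03 ± 0.29, edgeR adjusted p = 0.0166). The call held in all 32 alternative analyses, with the interaction between -3.09 and -2.48.

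AABR07017268.1, a gene with no annotated name here, showed the mirror pattern. AABR07017268.1, LOC100359600, Plscr5 and Ccl3 fell outside the rule for named genes and were singled out after their values were seen. AABR07017268.1 had 5.89, 6.32, 6.86, 6.83 and 5.17 CPM in control, 2.93 to 5.80 in light damage (median 4.35), 4.37, 2.85, 2.50, 3.02 and 2.53 in vehicle, and 7.35, 7.83, 9.36, 6.07 and 6.68 in vehicle plus light. Vehicle plus light did not overlap vehicle or light damage, and vehicle did not overlap control. Light lowered it without injection (-0.56 ± 0.18, edgeR adjusted p = 0.0276) and raised it after vehicle (1.29 ± 0.20, edgeR adjusted p = 3.94e-05). The interaction of 1.84 ± 0.27 (edgeR adjusted p = 0.00223) was carried by vehicle, though not clearly, since vehicle plus light also lay above light damage. Light raised AABR07017268.1 after nanoceria too, by 0.80 ± 0.21 (edgeR adjusted p = 0.0113).

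Spice1, a centriole and spindle protein, and LOC100359600 were lowest in light damage. Spice1 had 13.3, 10.8, 9.98, 12.4 and 11.7 CPM in control, 8.37 to 9.62 in light damage (median 8.92), 9.57, 10.3, 11.1, 10.5 and 11.4 in vehicle, and 14.6, 11.9, 11.8, 11.7 and 11.4 in vehicle plus light. Light damage did not overlap control or vehicle plus light. Light lowered Spice1 without injection (-0.39 ± 0.07, edgeR adjusted p = 0.000185), and after vehicle the response was 0.22 ± 0.08 (edgeR adjusted p = 0.0522). The interaction was 0.60 ± 0.10 (edgeR adjusted p = 0.0138) and was not called without control 6 (edgeR adjusted p = 0.0562). Spice1 was 1 of 22 genes called for vehicle plus light against light damage (0.122%), higher by 0.46 ± 0.07.

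LOC100359600 had 22.3, 30.97, 22.8, 33.9 and 33.7 CPM in control, 12.8 to 15.7 in light damage (median 13.8), 21.9, 26.7, 25.7, 20.5 and 21.2 in vehicle, and 18.6, 21.8, 29.6, 28.8 and 27.1 in vehicle plus light. All light damage libraries lay below all libraries of the other 3 groups. Its interaction of 1.15 ± 0.22 (edgeR adjusted p = 0.0436) was the clear case carried by light damage, and was not called with the near-identical pairs summed (edgeR adjusted p = 0.155) or when any 1 of 16 of the libraries was left out.

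Plscr5, of the phospholipid scramblase family, was near the detection limit. It had 0 counts in all 5 control libraries, 104 counts over the 7 light damage libraries, 46 over the 5 vehicle libraries and 11 over the 5 vehicle plus light libraries. Set against a floor of 3 counts over the control group, its pooled level was 19.6-fold higher in light damage and 14.7-fold higher in vehicle. For vehicle plus light it was 2.68-fold higher. These ratios leave out the spread between libraries and are not bounds. The interaction was called (edgeR adjusted p = 0.0124), but its fitted size depends on how zeros are handled and is not a bound.

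The chemokines Ccl3, which draws in monocytes and microglia, and Cxcl11, an interferon-induced ligand of the T cell receptor CXCR3, rose with light in both settings and rose less after vehicle. Ccl3 had 0.0689, 0.125, 0.259, 0.152 and 0.2502 CPM in control, 6.44 to 14.5 in light damage (median 8.81), 0.291, 0.350, 0.748, 0.338 and 0.306 in vehicle, and 6.96, 4.93, 3.20, 4.98 and 3.88 in vehicle plus light. Vehicle lay above control in every library, and vehicle plus light overlapped the lower end of light damage. The light response of Ccl3 was 5.93 ± 0.38 without injection and 3.58 ± 0.34 after vehicle, an interaction of -2.35 ± 0.46 (edgeR adjusted p = 0.0438). After nanoceria it was 3.30 ± 0.36.

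Cxcl11 had 0.138, 0.0915, 0.115, 0.0716 and 0.191 CPM in control, 2.03 to 3.57 in light damage (median 2.71), 0.561, 0.546, 0.195, 0.414 and 0.355 in vehicle, and 1.44, 1.95, 1.61, 1.21 and 2.56 in vehicle plus light. Vehicle did not overlap control, and vehicle plus light overlapped light damage. Light raised Cxcl11 by 4.55 ± 0.36 without injection and by 2.07 ± 0.32 after vehicle, an interaction of -2.48 ± 0.46 (edgeR adjusted p = 0.0253). On the log2 scale both chemokines were carried by control, where counts were lowest (8 to 16 counts of Cxcl11 per library). On the CPM scale the mean of Ccl3 was 10.3 ± 2.89 (SD, n = 7) in light damage and 4.79 ± 1.42 (SD, n = 5) in vehicle plus light. With the near-identical pairs summed, neither was called (edgeR adjusted p = 0.0811 for Ccl3 and 0.0662 for Cxcl11). Leaving out any of 15 single libraries for Ccl3, or any of 9 for Cxcl11, also took the adjusted p past 0.05.

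No other chemokine or cytokine was called. Of 29 measured, 2 were called lower and none higher (0.0221% of all genes in each direction), 24 had an interaction below 0 and 5 above (44.8% of all genes were below 0), and 6 were below 0 at an unadjusted p under 0.05 (against 2.71% of all genes). The list median was -0.41, against 0.02 over all genes. The 4 nominal members beside Ccl3 and Cxcl11 were the monocyte attractant Ccl2 (-1.80 ± 0.54, edgeR adjusted p = 0.422), Ccl4 (-1.67 ± 0.47), the inflammatory cytokine Il1b (-1.42 ± 0.48) and the interleukin 6 family member Il11 (-1.45 ± 0.67). Ccl2 ranged from 0.541 to 1.21 CPM in control libraries and from 0.966 to 3.32 in vehicle, and under light from 57.4 to 140.4 without injection (median 90.3) and from 18.3 to 92.4 after vehicle. Its 2 light-exposed groups overlapped, as did the 2 groups kept from light. Light called 16 of the 29 higher in each setting (11.9% of all genes without injection and 9.67% after vehicle). Control carried 16 of the 29 (29.1% of all genes). Markers of microglia and macrophages, the main source of several of these genes, had a median interaction of -0.24, with 21 of 31 below 0 and none called. Among them Lyz2, the lysozyme of phagocytes, had -1.41 ± 0.39 (edgeR adjusted p = 0.347), with a light response of 1.47 ± 0.27 without injection and 0.06 ± 0.28 after vehicle.

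**Figure D3:**
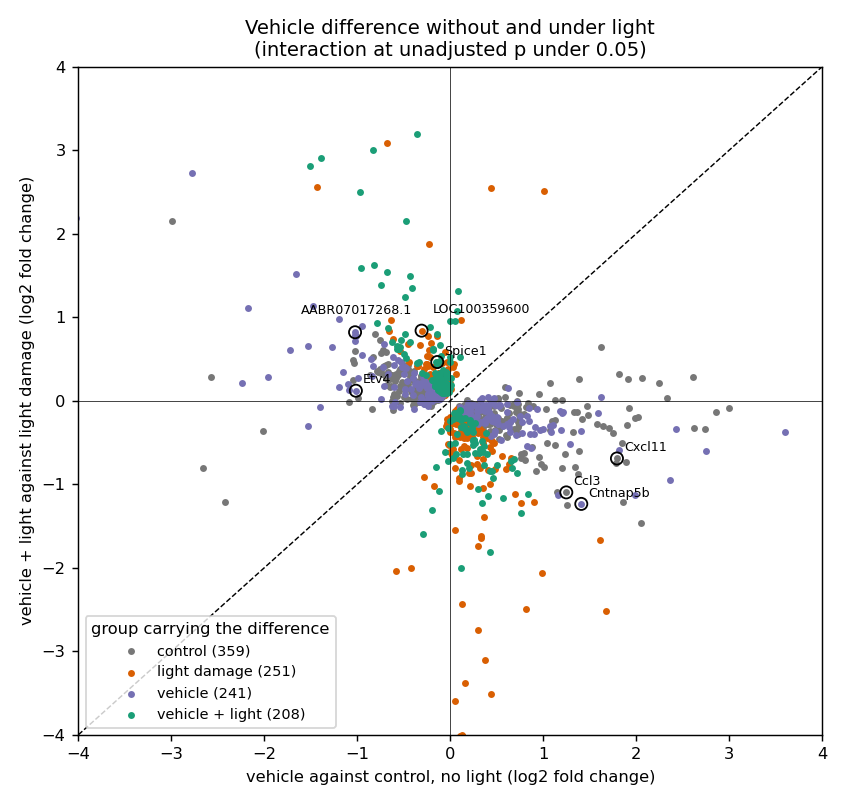
Vehicle difference without light (x axis) and under light (y axis), log2, for the 1059 genes with an interaction at an unadjusted p under 0.05, coloured by the group that carried it; circles mark called genes and 22 genes lie outside the axes. Points near the horizontal axis have a vehicle difference mainly without light, and points near the vertical axis mainly under light; Etv4 lies near the former, Spice1 and LOC100359600 near the latter.

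Genes of the integrated stress response, in which ATF4 is induced when protein folding or amino acid supply fails, and of the unfolded protein response gave no called interaction. Of 32 measured, 23 had an interaction above 0 and 9 below (55.2% of all genes were above 0), and 7 were above 0 at an unadjusted p under 0.05 (against 3.14% of all genes) with none below. The list median was 0.10, against 0.02 over all genes. The 7 were Mthfd2, a mitochondrial folate enzyme (1.27 ± 0.34, edgeR adjusted p = 0.292), the stress cytokine Gdf15 (1.24 ± 0.35), the pseudokinase Trib3 (1.22 ± 0.38), the transcription factor Atf3 (0.89 ± 0.34), Sesn2 (0.57 ± 0.16), Herpud1 of endoplasmic reticulum protein degradation (0.49 ± 0.13) and asparagine synthetase, Asns (0.43 ± 0.16). Vehicle carried 16 of the 32 (25.2% of all genes). Mthfd2 had 9.70, 16.9, 10.5, 37.8 and 15.8 CPM in control, 22.2 to 31.8 in light damage (median 27.997), 11.8, 8.26, 7.93, 8.83 and 8.65 in vehicle, and 29.98, 35.9, 35.02, 25.9 and 37.1 in vehicle plus light. Control 5 had the highest value of the 4 groups for Mthfd2, and the vehicle libraries overlapped control only at its low end. Light raised Mthfd2 after vehicle (1.85 ± 0.25, edgeR adjusted p = 6.39e-06) and after nanoceria (1.82 ± 0.28), and its response without injection did not pass (0.58 ± 0.23, edgeR adjusted p = 0.0733).

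The remaining genes nearest to a call did not pass. Some lack a proper symbol or a mean log2 CPM of 1, such as AC141169.2 (interaction 1.01, edgeR adjusted p = 0.0701) and Nutm1 (-1.35, edgeR adjusted p = 0.0853). Among the genes with both, the 8 in each direction with the smallest unadjusted p are given here. Those above 0 were Creg1 (0.29 ± 0.06, edgeR adjusted p = 0.0701), Vps50, Wrap53, Rpl17, Entpd5, Fkbpl, Acad11 and Rbm45. Vps50, a subunit of an endosomal tethering complex, ranged from 26.1 to 32.1 CPM in control libraries, from 26.8 to 32.4 in light damage, from 24.3 to 30.4 in vehicle and from 36.8 to 41.8 in vehicle plus light. The vehicle plus light libraries lay above all others of the 4 groups, and this group clearly carried the interaction of 0.44 ± 0.10 (edgeR adjusted p = 0.0853). Nanoceria plus light libraries, at 34.7 to 45.05 CPM, lay in the same range. Rpl17, a ribosomal protein whose reads processed copies can share, had 73.9 to 90.4 CPM in vehicle and 84.7 to 269.8 in vehicle plus light. Control libraries had 138.5, 79.0, 141.5, 149.0 and 161.0 CPM of Rpl17, and light damage libraries 84.8 to 118.1.

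Those below 0 were Nphs1, Nlrp1a, Cry2, Rn50_15_0408.6, Tifa, Prox1, RT1-CE7 and Homer3. Nphs1, nephrin, a cell adhesion protein, ranged from 4.14 to 6.04 CPM in vehicle, and from 2.54 to 4.14 in control, from 2.19 to 3.39 in light damage and from 1.78 to 2.54 in vehicle plus light. It was clearly carried by vehicle, the highest group, with an interaction of -1.02 ± 0.21 (edgeR adjusted p = 0.0701). Cry2, a repressor of the circadian clock, ranged from 128.8 to 163 CPM in control libraries, from 98.1 to 185 in light damage, from 137 to 210.3 in vehicle and from 91.9 to 115 in vehicle plus light. Light lowered Cry2 after vehicle (-0.83 ± 0.13, edgeR adjusted p = 2.64e-05) and after nanoceria (-0.83 ± 0.13), and gave -0.05 ± 0.12 without injection, while the interaction of -0.78 ± 0.17 did not pass (edgeR adjusted p = 0.104).

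Nlrp1a, an inflammasome sensor, and Rn50_15_0408.6 varied widely within the vehicle and the vehicle plus light groups. Nlrp1a was 2.23, 8.03, 7.81, 2.56 and 2.14 CPM in vehicle and 3.29, 4.72, 3.26, 8.33 and 2.64 in vehicle plus light, while control lay at 1.63 to 2.26 and light damage at 8.42 to 13.3. Rn50_15_0408.6 was below 0.5 CPM in all control libraries, at 5.58 to 20.5 in all light damage libraries, and at 0.364, 12.98, 21.3, 5.56 and 6.32 in vehicle. Its vehicle plus light libraries, at 0.280, 8.32, 0.454, 9.02 and 0.243 CPM, fell at both levels. RT1-CE7, a class I histocompatibility gene, belongs to a multigene family whose members can share reads, and had 36.9 to 71.1 CPM in light damage and 20.5 to 37.4 in vehicle plus light.

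**Figure D4:**
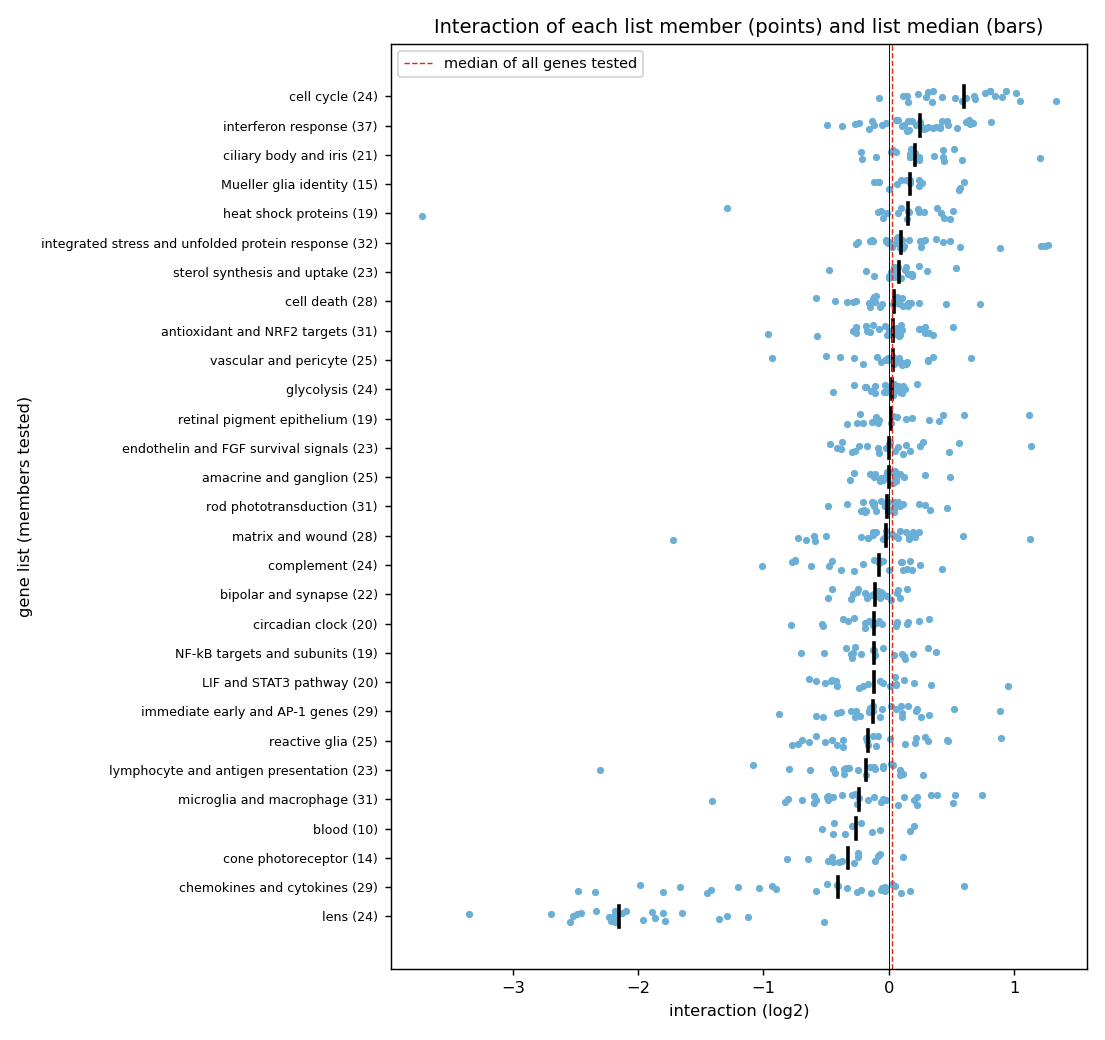
Interaction (log2) of every measured member of 29 gene lists (points) with the list median (black bars), ordered by median, and the median of all genes tested (dashed line). Most list medians lie close to the dashed line, while lens (-2.16) and chemokines and cytokines (-0.41) lie lowest and the cell cycle (0.60) highest.

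Rod genes and the LIF pathway gave no called interaction, though single genes had wide intervals. Of 31 measured rod phototransduction genes, light called 29 lower without injection and 27 after vehicle (10.6% and 7.17% of all genes). Their median response was -1.17 and -1.21, and none was called for the interaction. Rod transducin, Gnat1, changed by -3.06 ± 0.38 and -3.55 ± 0.44 (interaction -0.49, 95% interval -1.59 to 0.62). Lif, the injury cytokine, rose by 4.67 ± 0.47 and 4.09 ± 0.46, its feedback inhibitor Socs3 by 4.49 ± 0.27 and 4.08 ± 0.27, the survival factor Fgf2 by 2.23 ± 0.17 and 1.96 ± 0.17, and endothelin 2, Edn2, by 3.74 ± 0.42 and 3.45 ± 0.42. The interactions of Lif, Socs3, Fgf2, Edn2, C3, Hmox1, Mt2A and Sod2 lay between -0.96 and -0.27, and none was called. All 20 measured members of the LIF and STAT3 list had a light response above 0 in each setting. Light called 19 of them higher without injection and 17 after vehicle (11.9% and 9.67% of all genes). The median response was 1.29 without injection and 1.58 after vehicle. Gene by gene, however, the interaction had a median of -0.12, with 8 members above 0 and 12 below (44.8% of all genes were below 0). Other lists had a smaller median light response after vehicle, at 1.37 against 2.51 for chemokines and cytokines, 1.08 against 1.56 for reactive glia, and 0.27 against 0.51 for microglia and macrophages.

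Cone genes gave no called interaction. Of 14 measured, 13 had an interaction below 0 (44.8% of all genes were) with a median of -0.33, and 1 passed an unadjusted p under 0.05 (Pde6c, the cone phosphodiesterase, -0.48 ± 0.19, edgeR adjusted p = 0.685). Light raised Pde6c without injection (0.89 ± 0.13) and after vehicle (0.41 ± 0.14). Light called 2 cone genes higher and 2 lower without injection (11.9% and 10.6% of all genes), and 2 higher and 8 lower after vehicle (9.67% and 7.17%), and the difference in these counts was not tested. The short-wave opsin Opn1sw had an interaction of -0.64 ± 0.51.

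Glial genes gave no called interaction. Gfap, the filament protein that reactive Müller glia and astrocytes make, had 87.3, 12.3, 48.5, 17.8 and 109.9 CPM in control, 119.8 to 341 in light damage (median 213), 346, 132, 81.3, 50.8 and 49.1 in vehicle, and 353, 402, 383, 325 and 285 in vehicle plus light. Vehicle 1 stood apart from the other vehicle libraries and overlapped the light-exposed ones. The interaction of Gfap was -0.58 ± 0.68 and was 0.17 without vehicle 1. Sox9, a transcription factor of Müller glia, had 19.2 to 23.9 CPM in vehicle, 16.5 to 26.1 in control, 21.5 to 26.3 in light damage, and 52.02, 53.2, 35.7, 53.99 and 37.6 in vehicle plus light. Only the vehicle plus light libraries were high, and vehicle plus light exceeded light damage by 0.95 ± 0.17 (edgeR adjusted p = 0.0093), but the interaction of 0.90 ± 0.25 did not pass (edgeR adjusted p = 0.349). Light raised Sox9 by 0.90 ± 0.20 after nanoceria (edgeR adjusted p = 0.00254).

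Cell cycle and lens genes had the most extreme list medians, with none called. Of 24 measured cell cycle genes, 23 had an interaction above 0 (55.2% of all genes were), with a median of 0.60. At an unadjusted p under 0.05, 6 were above 0 (Aurkb, Top2a, Bub1, Ccna2, Birc5 and Aurka), against 3.14% of all genes. Control carried 20 of the 24 (29.1% of all genes). The control libraries were spread widely, the median member lying at 1.24 (log2 CPM centred over libraries) in control 6 and at -0.69 in control 1. Without control 6 the list median was 0.30, and without control 1 it was 0.77. All 24 measured lens genes had an interaction below 0 (44.8% of all genes were), with a median of -2.16. Vehicle carried 22 of them (25.2% of all genes). The vehicle libraries ranged from -0.25 to 3.67 on the centred scale. Without vehicle 1 the list median was -1.16, and without control 5 it was -3.45. Cryga, a lens crystallin, had 135, 2.98, 10.5, 2.53 and 2.60 CPM in vehicle and an interaction of -3.35 ± 1.49 that was not called. The part of lens RNA or of sex in the called interactions was not tested beyond a fit with a term for Y-linked transcripts, in which 7 of the 8 calls stood and Ccl3 did not (interaction -2.22, edgeR adjusted p = 0.061).

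**Figure D5:**
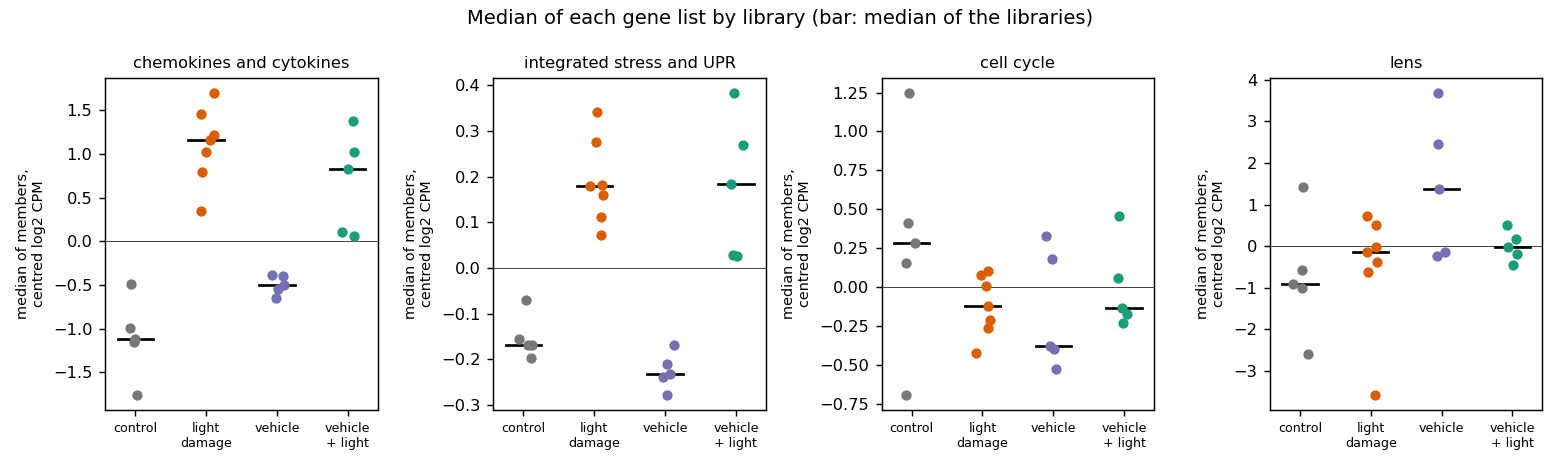
Median over the members of 4 gene lists in each library (points, log2 CPM centred over libraries) with the median of the libraries (bar), by group. Chemokines and cytokines lie higher in vehicle than in 4 of 5 control libraries and reach less far in vehicle plus light, while control 6 in the cell cycle list and vehicle 1 in the lens list stand apart.

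Of the other lists, the ciliary body and iris, Müller glia, sterol, interferon and heat shock genes had the largest shares of members above 0, and none was called. Over all genes, 55.2% were above 0. Markers of the ciliary body and iris had 18 of 21 above 0 (median 0.21), and those of Müller glia 12 of 15 (median 0.17). Interferon response genes had a median of 0.25 with 28 of 37 above 0 and none at an unadjusted p under 0.05. Of 23 sterol synthesis and uptake genes, 18 were above 0 (median 0.09), and of 19 heat shock genes 13 were (median 0.15).

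Vehicle alone was also compared without light and under light. The number of genes called rested on the tool: edgeR called 4 without light and 22 under light, the DESeq2 Wald test 52 and 89, and limma-voom 2211 and 229, and without vehicle 1 edgeR called 24 without light. By edgeR, vehicle against control called Etv4, Il17rb (1.62 ± 0.27), LOC497796 (1.92 ± 0.34) and Actg2 (-2.42 ± 0.45), of which Etv4 was also called for the interaction. The 22 genes called for vehicle plus light against light damage were 11 in each direction, and Spice1 and LOC100359600 were also called for the interaction. The lower ones included the class I histocompatibility genes RT1-CE6 (-1.55 ± 0.24) and RT1-CE16_2 (-2.04 ± 0.31), which can share reads, and Apln, a peptide ligand of endothelial cells (-0.92 ± 0.16). Il17rb, LOC497796, Actg2, RT1-CE6, RT1-CE16_2 and Apln were singled out after their values were seen.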

How the data were processed

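Retinal polyA RNA was read as paired ends, and the labels call the replicates biological. The deposited table holds raw counts per gene, made by the authors with Trimmomatic 0.39, STAR 2.7.9a and featureCounts of Subread 2.0.1 on rn6, per the submitters' processing notes, with strand setting and annotation release not given in the sources used here. A mark for a name used more than once is borne by 4504 genes, and their reads may be shared. Of 42 labelled samples, 31 were analysed and 11 were not analysed here.

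All 31 libraries entered 1 fit of edgeR 4.0.16 in R 4.3.3 (quasi-likelihood, robust, TMM scaling, 1 coefficient per group, no covariate). The filter (minimum count 10, minimum total 15) left out 14529 genes, 9389 of them with 0 counts throughout. Benjamini-Hochberg adjustment ran over 18094 genes; adjusted p-values in the text come from this test. SE and 95% intervals follow from the F statistic. CPM are scaled by TMM; log2 CPM have a prior count of 2. Deviations of same-numbered libraries of different groups correlated weakly (26 pairs, 7 over 0.1, median 0.049, from -0.188 to 0.335). The 154 other pairs had a median of 0.004. This check cannot exclude a pairing by replicate number. Y-linked transcripts were called high at 10 CPM. The fit was tested on simulated data.

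The gene lists, the rule for named genes and the tests were chosen with earlier results of these data known. List members named outside that rule were chosen after their values were seen. The rule took called genes that have a proper symbol and reach a mean log2 CPM of 1, filled to 10 per direction by smallest unadjusted p, the member of each list with the smallest p, and 15 fixed genes, 1 of which is not reported here. Alternatives were scaling by DESeq2 1.42.0 size factors, library size alone, no filter, only the 4 groups, the DESeq2 Wald test, limma-voom (limma 3.58.1) with quality weights, a replicate block, summed pairs, a term for Y-linked transcripts, leaving out each library, and, chosen after seeing the data, leaving out all libraries numbered 1. Promoters are from RefSeq.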

Additional observations from a re-analysis of the deposited data

Results flagged for a closer look

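The light response differed between vehicle-injected and uninjected animals, by edgeR's test of the interaction, for Cntnap5b (-2.64), AABR07017268.1 (1.84), Etv4 (1.14), Plscr5 (-9.08, a fitted value of a gene with 0 counts in control), Spice1 (0.60), Cxcl11 (-2.48), LOC100359600 (1.15) and Ccl3 (-2.35), all on the log2 scale.

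Among 276 combinations of a named gene and a group, Dixon's test flagged 1 library as apart from its group in 17. That is not far above the about 1 in 20 that chance flags. The test weighs a gap against the range of the group, so a flagged library can differ little in CPM. Sod2 in control 6 had 123.6 CPM against 118.8 to 119.5 in the other controls. In vehicle these were Ccl3 in replicate 3 (0.748 CPM, high), Wrap53 (9.93, low) and Pde6c (11.9, low) in replicate 2, and Cry2 (137, low), Mthfd2 (11.8, high) and Sod2 (133, high) in replicate 1. In vehicle plus light, replicate 1 was high for Spice1 (14.6) and low for RT1-CE7 (20.5). In light damage, Etv4 was low in replicate 5 (8.27), Tifa (17.9), Lyz2 (99.4) and Il4r (43.5) were low in replicate 2, and Cryga was low in replicate 1 (1.03). In control, Rpl17 was low in replicate 2 (79.0), Gdf15 low (4.47) and Cry1 high (51.4) in replicate 1, and Sod2 high in replicate 6 (123.6). All these values are CPM.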

How the results depend on the processing

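The 8 interaction calls became 40 by the DESeq2 Wald test (15 higher, 25 lower; all 8 among them), 118 by limma-voom with quality weights (66 higher, 52 lower; 7 of the 8), 5 with the near-identical pairs summed (3 higher, 2 lower; all 5 among the 8) and 15 without the libraries numbered 1 (6 higher, 9 lower; 6 of the 8). With the replicate number as a block they became 5 (2 higher and 3 lower, 4 of them among the 8). The check of the pairing gave weak correlations and does not settle whether such a block is needed. Leaving out 1 library at a time gave 5 to 21 calls (2 to 10 higher, 2 to 11 lower), with 21 without vehicle 1. Cntnap5b and AABR07017268.1 were called in all 32 alternatives, Etv4 and Plscr5 in all but the block (edgeR adjusted p = 0.0557 for each), whereas Spice1 was lost in 4, Cxcl11 in 11, LOC100359600 in 19 and Ccl3 in 20. Calls of vehicle plus light against vehicle were 5219 by limma-voom and 2356 to 3189 without 1 library, and those of light damage against control 3439 to 4167. The 4 calls of vehicle against control became 7 with only the 4 groups, 52 by DESeq2, 2211 by limma-voom, 10 without the libraries numbered 1, 1 with the Y-linked term, and 1 to 24 without 1 library (24 without vehicle 1). The 22 calls of vehicle plus light against light damage became 89 by DESeq2, 229 by limma-voom, and 17 to 32 without 1 library. The interaction of Gfap turned from -0.58 to 0.0593 without the libraries numbered 1 and to 0.168 without vehicle 1 (-1.01 to 0.168 without 1 library), and that of Edn2 from -0.29 to 0.0035 without vehicle 2 (-0.74 to 0.0035). The cause was not tested. With library size alone, the median light response after vehicle over all genes was 0.12 in place of 0.02. The SE of the interaction, at a median of 0.198, limits what could be called.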
